A study of Mus musculus with 9 samples.

Results

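The genes examined were the granulocyte colony-stimulating factor (G-CSF) receptor *Csf3r* and 7 receptor chains of the interleukin-6 (IL-6) family, *Il6st*, *Il6ra*, *Lifr*, *Osmr*, *Il11ra1*, *Il27ra* and *Lepr*. They were chosen by gene symbol from a table of 54347 mouse genes, and all 8 were found there. The table holds bulk RNA-seq of 3 myeloid cell lines with 3 libraries each. The Hox-WT and Hox-URE lines were derived from c-Kit+ bone marrow progenitors by immortalization with a Hoxb8 fusion protein that estradiol activates. Hox-WT carries the wild-type *Spi1* locus, which encodes the transcription factor PU.1, and Hox-URE lacks an enhancer of this locus, the upstream regulatory element (URE). URE-AML was derived from acute myeloid leukemia blasts of a URE-deleted mouse, and its libraries held 0 counts of *Hoxb8*. Every library came from cells kept with 20% serum, 10 ng/ml IL-6, 1 µM estradiol, IL-3 and stem cell factor, so IL-6 was present in all groups. The estradiol concentration is that of the labels, and the study's methods give a different one. Wild-type *Spi1* is represented by 1 line and the URE deletion by 2 lines of different origin, and the sources used here do not say whether separate cultures were used for the libraries of a line. The p-values therefore measure the spread between libraries of a line, not between mice.

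Receptors of this group have no kinase of their own. gp130, the product of *Il6st*, is the shared signalling chain for IL-6, IL-11, IL-27, leukemia inhibitory factor and oncostatin M, and the partner chain decides which ligand is recognised. Binding brings JAK kinases together, which phosphorylate STAT3 and other STAT proteins, and SOCS3 is induced and shuts the receptors down. The G-CSF receptor is built like gp130, signals as a pair of identical chains and is best known in marrow for driving neutrophil production.

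Sequence upstream of the start sites is given because the lines differ in PU.1, which binds ETS sites with a GAGGAA core, and because *Csf3r* is a textbook PU.1 target. RefSeq promoter sequences (GRCm38.p6) were found for 7 of the 8 genes, all but *Il27ra*. In the 250 bases before each start site, GAGGAA (or TTCCTC on the other strand) occurred at *Csf3r*, *Il6ra*, the second start site of *Il11ra1*, the second start site of *Lepr* and *Osmr*, and it occurred in 23.3% of all 32851 promoters of that length. A RUNX-type TGTGGT (or ACCACA), present in 14% of promoters, occurred at the second start site of *Il11ra1*. TTGCNNAA (or TTNNGCAA) for C/EBP factors and the palindrome TTCNNNGAA for STAT factors, present in 9.56% and 7.02% of promoters, occurred before none of the start sites of the 7 genes. These are matches of letters, not measured binding. The RefSeq start of *Csf3r* and the second RefSeq starts of *Il11ra1* and *Lepr* lie downstream of the GENCODE gene starts used for positions here, so the matches shown for these 3 genes fall inside the genes as GENCODE places them. The 30 bases around 4 of the GAGGAA matches are shown with the match in capitals, read on the plus strand, at chr4:126024561-126024590 (*Csf3r*), chr3:89913249-89913278 (*Il6ra*, a minus-strand gene), chr4:41762236-41762265 (*Il11ra1*) and chr4:101717882-101717911 (*Lepr*).
Csf3r: cctccttcctgaGAGGAAggggctgtctat
Il6ra: agtgaaacatttGAGGAAccggtgctgaag
Il11ra1: tgagagagggaaGAGGAAgaggtggaggag
Lepr: atttgcagcggtGAGGAAaaaaccagaccc
*Il6st* held no GAGGAA in its 250 upstream bases (chr13:112463820-112464069, plus strand), which are 66.0% G or C and are printed as the contrast to *Il6ra*, its partner in the IL-6 receptor (chr3:89913197-89913446, minus strand, 65.2% G or C, the match in capitals as TTCCTC).
Il6st: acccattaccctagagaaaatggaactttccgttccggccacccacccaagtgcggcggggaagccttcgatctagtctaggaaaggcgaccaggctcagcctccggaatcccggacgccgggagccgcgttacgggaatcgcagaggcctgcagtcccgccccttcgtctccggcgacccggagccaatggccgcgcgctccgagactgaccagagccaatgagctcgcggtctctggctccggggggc
Il6ra: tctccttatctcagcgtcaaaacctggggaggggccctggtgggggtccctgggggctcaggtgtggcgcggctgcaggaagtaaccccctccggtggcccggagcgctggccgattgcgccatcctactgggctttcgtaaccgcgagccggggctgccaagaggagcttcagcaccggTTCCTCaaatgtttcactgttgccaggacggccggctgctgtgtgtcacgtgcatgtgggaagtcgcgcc

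Library totals ran from 20331064 to 28588718 estimated counts, and levels are given in CPM, the usual count scaling to a common library size, in which 3 counts in a library correspond to 0.104 to 0.153 CPM. *Kit* was present in all 3 lines (35.4 to 192 CPM). *Ptprc*, the gene of the leukocyte antigen CD45, had 152 to 170 CPM in Hox-WT, 0 counts in Hox-URE and 2 counts in all in URE-AML, and *Cd34* had 1 count in all in URE-AML. The 12 neutrophil genes summed to 5624 to 9053 CPM in Hox-WT, 2800 to 4118 CPM in Hox-URE and 11664 to 26254 CPM in URE-AML. *Mpo*, the gene of myeloperoxidase, made up most of the Hox-WT sum (3291, 5947 and 5881 CPM, against 10.2, 2.82 and 2.14 CPM in Hox-URE). Without it, a choice made after its values were seen, the sums of Hox-WT (2333 to 3172 CPM) and Hox-URE (2790 to 4116 CPM) overlapped. Most of both sums was then *Ctsg* (1598, 2085 and 2292 CPM in Hox-WT, 2482, 3631 and 3858 CPM in Hox-URE). Of the 12 genes 9 were called lower and 1 higher in Hox-URE vs Hox-WT, where 15.9% and 21.3% of all tested genes were. The 6 basophil and mast cell genes summed to 483 to 838 CPM in Hox-WT, 1612 to 5889 CPM in Hox-URE and 31.4 to 62.7 CPM in URE-AML, and *Fcer1a* among them was at 0 in both Hox lines. The 6 monocyte and macrophage genes summed to 286 to 295 CPM, 840 to 941 CPM and 14.1 to 21.6 CPM in the same order of lines, with *Csf1r*, the defining receptor of that lineage, at 0 in Hox-URE. The high sum in Hox-URE was almost all *Ccr2*, a chemokine receptor (840, 938 and 877 CPM against a mean of 12.7 CPM in Hox-WT). Of the 5 tested genes of this list 3 were called lower and 1 higher in Hox-URE vs Hox-WT. The shares over all tested genes were 15.9% lower and 21.3% higher. *Adgre1*, the gene of F4/80, was among those lower (mean 1.43 CPM against 274 CPM in Hox-WT). *Ccr2* and *Adgre1* were named after their values were seen. The 5 progenitor genes (*Kit*, *Ptprc*, *Cd34*, *Myb* and again *Mpo*) summed to 5185 to 8101 CPM, 831 to 1313 CPM and 446 to 504 CPM, and to 1894 to 2154 CPM, 821 to 1311 CPM and 257 to 293 CPM without *Mpo*. Lists for megakaryocytes, erythroid and lymphoid cells, stroma and endothelium summed to at most 82.1 CPM in any library, the highest being stroma in Hox-URE (49.3 to 82.1 CPM, against 14.8 to 16.9 CPM in Hox-WT). Of the 6 stroma genes 3 were tested and called higher in Hox-URE vs Hox-WT, where 21.3% of all tested genes were called higher. *Pdgfrb* was the most abundant of them (means of 63.3 and 14.8 CPM). The call of *Col1a2* was lost without Hox-URE library 2, without Hox-WT library 1 or 2 and in a test against 1.5-fold. *Pdgfra* and *Dcn* were at 0 in both lines. The part of these differences in marker genes in the receptor values was not tested, and fewer cells with a transcript and fewer transcripts per cell cannot be told apart in bulk RNA.

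*Csf3r* (ENSMUSG00000028859, protein-coding, plus strand of chromosome 4 at 126024550 to 126044440, GRCm38) was highest in Hox-WT, lowest in Hox-URE and between them in URE-AML. It had 26.9, 27.6 and 27.9 CPM in the 3 Hox-WT libraries, a mean of 27.4 ± 0.493 CPM (SD, n = 3). Hox-URE had 3.02, 3.27 and 2.91 CPM (mean 3.07 ± 0.185, SD, n = 3). URE-AML had 6.78, 17.0 and 12.2 CPM (mean 12.0 ± 5.12, SD, n = 3). No library of a line overlapped with those of another line. The libraries of both Hox lines lay close together, while the highest URE-AML library was well above the lowest. A gene was called where edgeR's quasi-likelihood test gave a Benjamini-Hochberg adjusted p under 0.05 over 13082 tested genes together with a fold change over 1.5. *Csf3r* was called in all 3 comparisons. Its log2 fold change was -3.16 ± 0.29 (SE) in Hox-URE vs Hox-WT (8.92-fold lower, edgeR adjusted p = 1.03e-05). It was -1.20 ± 0.26 in URE-AML vs Hox-WT (2.29-fold lower, edgeR adjusted p = 0.0025). URE-AML exceeded Hox-URE by 1.96 ± 0.28 (3.89-fold, edgeR adjusted p = 0.00019).

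*Il6st* (ENSMUSG00000021756, chromosome 13, 112464070 to 112510086, plus strand, protein-coding), the gene of gp130, was lower in Hox-URE vs Hox-WT, but the Hox-URE libraries did not resemble each other. Hox-WT had 11.2, 7.32 and 13.0 CPM (mean 10.5 ± 2.91, SD, n = 3) and URE-AML had 8.44, 4.14 and 5.02 CPM (mean 5.86 ± 2.27, SD, n = 3). These 2 lines overlapped. Hox-URE had 1, 90 and 6 counts, equal to 0.0364, 3.73 and 0.306 CPM, so its library 2 was close to the lowest URE-AML library and its libraries 1 and 3 were near absence. The log2 fold change of *Il6st* was -2.94 ± 0.88 (SE) in Hox-URE vs Hox-WT (7.68-fold lower, edgeR adjusted p = 0.0173). Leaving out library 2 of Hox-URE gave -6.07 (edgeR adjusted p = 0.000112), and leaving out its library 1 gave -2.34 (edgeR adjusted p = 0.0144). URE-AML vs Hox-URE gave 2.10 ± 0.88 (edgeR adjusted p = 0.0631), which was not called with all libraries and was called without Hox-URE library 2 (log2 fold change 5.22, edgeR adjusted p = 0.000208). URE-AML vs Hox-WT gave -0.84 ± 0.79 (edgeR adjusted p = 0.39). It was called where only the 6 libraries of these lines were fitted (edgeR adjusted p = 0.0361), and over all settings tried its adjusted p ranged from 0.0361 to 0.719.

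The spread of *Il6st* among the Hox-URE libraries was wide against the rest of the table. The highest library exceeded the lowest by 5.03 on the log2 scale (CPM with a prior count of 2), against a median of 0.38 over the 13082 tested genes, and 0.168% of tested genes had a spread as wide. Hox-URE library 2 lay above the other libraries of its line by the margin of *Il6st*, 3.30 on the log2 scale, in 6 tested genes, *Il6st* included. The same library had 1 count of *Spi1* and 0 counts of *Ptprc* and *S100a9*. Mean levels of *Spi1* and *Ptprc* were 102 and 158 CPM in Hox-WT, and that of *S100a9* was 452 CPM in URE-AML. The cause of the higher *Il6st* level in library 2 was not tested. The ranges in Hox-URE were 0.16 for *Csf3r*, 0.12 for *Il11ra1* and 0.80 for *Il27ra*. That of *Il6ra* (0.71) rests on 1, 0 and 1 counts, where the prior count keeps it small.

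**Figure D1:**
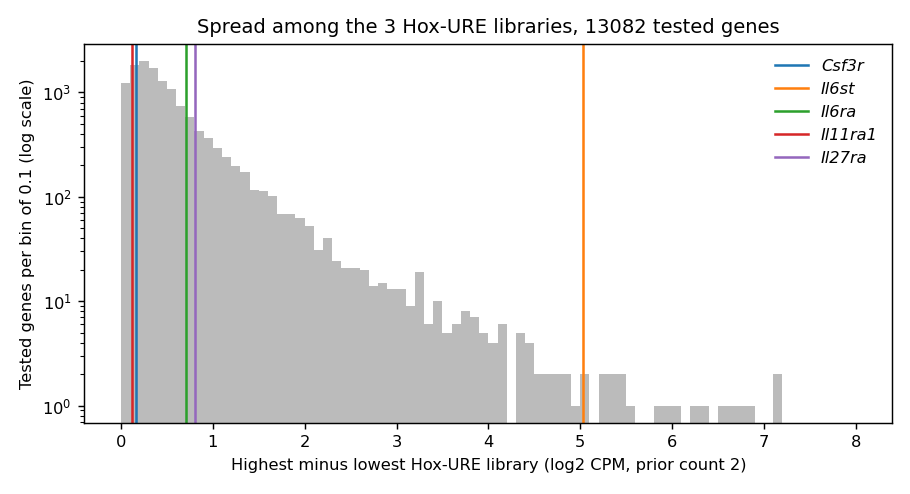
Histogram of the range among the 3 Hox-URE libraries (highest minus lowest log2 CPM, prior count 2; x axis) over 13082 tested genes (y axis, number of genes per bin of 0.1, log scale), with vertical lines at the 5 tested receptor genes. *Il6st* lies at 5.03, far in the upper tail, and the other 4 lie between 0.12 and 0.80.

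*Il6ra* (ENSMUSG00000027947, chromosome 3, 89864059 to 89913196, minus strand, protein-coding), the chain that binds IL-6 before gp130 joins, was near absence in Hox-URE and present in the other lines. Hox-WT had 3.78, 4.36 and 3.66 CPM (101, 122 and 106 counts) and URE-AML had 2.74, 2.04 and 1.97 CPM (68, 43 and 46 counts). Hox-URE had 1, 0 and 1 counts. The Hox-URE libraries thus held 2 counts together, which gives 0.00340 to 0.101 CPM as the exact 95% Poisson interval, and this interval covers counting error only. *Il6ra* was 140-fold lower by summed counts in Hox-URE vs Hox-WT (exact 95% counting interval 38.5 to 1161; edgeR adjusted p = 1.77e-06). By the same count it was 80.9-fold higher in URE-AML vs Hox-URE (exact 95% counting interval 22.02 to 674; edgeR adjusted p = 3.38e-06). URE-AML was lower than Hox-WT by a much smaller step, with a log2 fold change of -0.80 ± 0.29 (SE; 1.74-fold; edgeR adjusted p = 0.0367) and no overlap between libraries. That last call was lost in 5 of the 9 fits that left out a library (URE-AML 2 or 3, or any Hox-WT library), and over all settings tried its adjusted p ranged from 0.0147 to 0.243. *Il6ra* shares 242 exon bases with the antisense gene *Gm42809*, and although the libraries were made with a directional kit, the sources used here do not state whether counting used strand.

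*Il11ra1* (ENSMUSG00000073889, chromosome 4, 41699989 to 41769474, plus strand, protein-coding), the chain that binds IL-11 and signals through gp130, went the other way. Hox-URE had 52.3, 49.3 and 53.6 CPM (mean 51.8 ± 2.20, SD, n = 3). Hox-WT had 5.28, 3.43 and 5.91 CPM (mean 4.87 ± 1.29, SD, n = 3) and URE-AML had 6.34, 10.4 and 12.1 CPM (mean 9.59 ± 2.94, SD, n = 3). No line overlapped with another, and the step up in Hox-URE was far wider than the spread within any line. The log2 fold change was 3.41 ± 0.25 (SE) in Hox-URE vs Hox-WT (10.6-fold higher, edgeR adjusted p = 2.71e-06). It was -2.43 ± 0.24 in URE-AML vs Hox-URE (5.41-fold lower, edgeR adjusted p = 1.44e-05). It was 0.97 ± 0.25 in URE-AML vs Hox-WT (1.96-fold higher, edgeR adjusted p = 0.00662), a call that was lost when the test was made against a fold change of 1.5 (edgeR adjusted p = 0.069). *Il11ra1* has a near-identical copy, *Il11ra2*, to which estimated counting could assign reads. *Il11ra2* had 0 counts in all 9 libraries, so the summed counts of the pair gave the same calls. *Il11ra1* also shares 8 exon bases with *Ccl27a* on the opposite strand.

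*Il27ra* (ENSMUSG00000005465, chromosome 8, 84030294 to 84042589, minus strand, protein-coding), the IL-27 chain that pairs with gp130, was scarce in every line and higher in Hox-URE vs Hox-WT. It had 0.225, 0.143 and 0.519 CPM in Hox-WT (6, 4 and 15 counts), 1.20, 2.15 and 1.69 CPM in Hox-URE (33, 52 and 33 counts) and 0.565, 0.618 and 1.12 CPM in URE-AML (14, 13 and 26 counts). Every Hox-URE library was above every library of the other lines, by a small margin over URE-AML. The log2 fold change was 2.48 ± 0.51 (SE) in Hox-URE vs Hox-WT (5.57-fold higher, edgeR adjusted p = 0.00219), and 3.15 without Hox-WT library 3 (edgeR adjusted p = 0.0018). URE-AML vs Hox-WT gave 1.35 ± 0.52 (2.55-fold higher, edgeR adjusted p = 0.0465) and 2.02 without Hox-WT library 3 (edgeR adjusted p = 0.014). That call was lost in 6 of the 9 fits that left out a library (URE-AML 2 or 3, Hox-URE 2 or 3, Hox-WT 1 or 2), and its adjusted p over all settings tried ranged from 0.014 to 0.179. URE-AML vs Hox-URE gave -1.12 ± 0.47 (edgeR adjusted p = 0.0627), which was called without library 3 of URE-AML, library 1 of Hox-URE or library 3 of Hox-WT (adjusted p over all settings from 0.0415 to 0.198). *Il27ra* shares 2 exon bases with *Palm3* on the opposite strand.

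*Lifr*, *Osmr* and *Lepr* were at or near 0 and were not tested. *Osmr* (chromosome 15, 6813577 to 6874969, minus strand), the chain that gives gp130 its oncostatin M-specific receptor, had 0 counts in all 9 libraries. In a single library this allows a level of up to 3 counts, or 0.104 to 0.153 CPM depending on its depth. *Lifr* (chromosome 15, 7090614 to 7197489, plus strand), the leukemia inhibitory factor chain, had 0 counts in Hox-WT, 0, 0 and 3 in Hox-URE and 1, 0 and 0 in URE-AML. *Lepr* (chromosome 4, 101717404 to 101815352, plus strand), the leptin receptor, had 3, 0 and 0 counts in Hox-WT, 2, 0 and 2 in Hox-URE and 1, 0 and 5 in URE-AML. No difference between lines was detectable for these 3 genes at this depth.

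**Figure D2:**
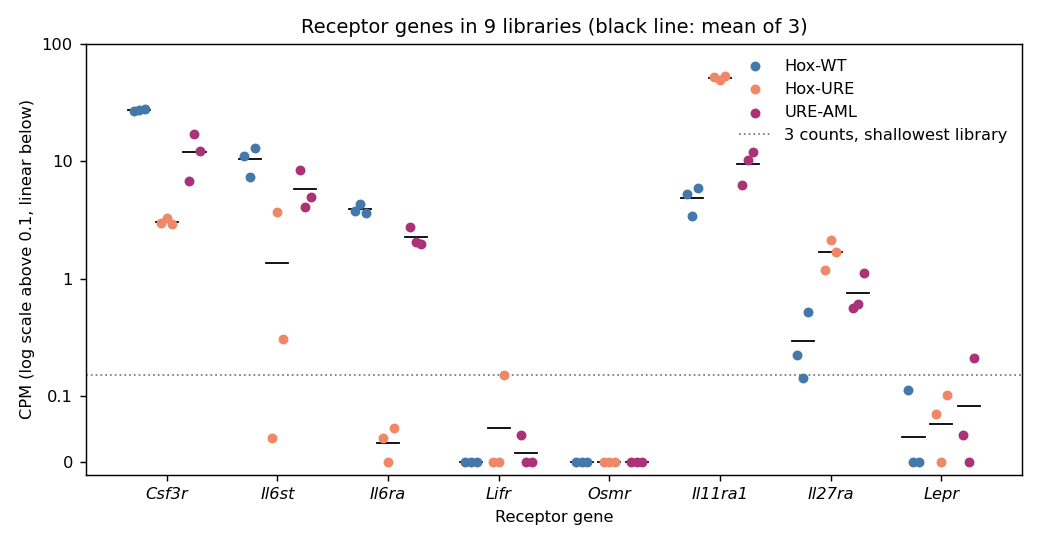
Level of each of the 8 receptor genes (x axis) in CPM (y axis, logarithmic above 0.1 and linear below) in every library of Hox-WT, Hox-URE and URE-AML; black lines are means of 3 libraries, and the dotted line marks 3 counts in the shallowest library (0.153 CPM). *Csf3r* and *Il6ra* are lowest in Hox-URE, *Il11ra1* and *Il27ra* are highest there, *Il6st* is scattered there, and *Lifr*, *Osmr* and *Lepr* stay near 0.

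Levels of different genes were compared per kilobase of exon (CPM per kb). In Hox-WT the order was *Csf3r* (7.60), *Il11ra1* (1.09), *Il6st* (0.947), *Il6ra* (0.455) and *Il27ra* (0.0845), with *Il11ra1* and *Il6st* overlapping and the other neighbours apart. In Hox-URE *Il11ra1* led with 11.6 CPM per kb, followed by *Csf3r* (0.850), *Il27ra* (0.481) and *Il6st* (0.122), and the ranges of these 4 did not overlap. *Il6ra* in Hox-URE (0.00337) was among the untested genes in rank, with overlapping ranges. In URE-AML the order was again *Csf3r* (3.32), *Il11ra1* (2.14), *Il6st* (0.528), *Il6ra* (0.261) and *Il27ra* (0.219), where *Csf3r* overlapped with *Il11ra1* and *Il6ra* with *Il27ra*. Both of these pairs changed places when levels were divided by the longest transcript instead (*Il11ra1* 3.68 and *Csf3r* 3.45, *Il27ra* 0.2614 and *Il6ra* 0.2609 CPM per kb). The ratio of *Il6st* to *Il6ra* per kilobase was 2.30, 1.31 and 2.77 in the Hox-WT libraries and 2.39, 1.58 and 1.98 in the URE-AML libraries, so the 2 chains of the IL-6 receptor stood in overlapping proportions in these lines. Both chains were far lower in Hox-URE libraries 1 and 3. Hox-URE library 2 had gp130 transcript (90 counts) and no count of *Il6ra*. The ratio of *Il11ra1* to *Il6st* per kilobase was 1.13 to 1.17 in the Hox-WT libraries, 1.86 to 6.22 in URE-AML, and 32.9 and 434 in Hox-URE libraries 2 and 3.

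Of the 5 tested receptors, 5 were called in Hox-URE vs Hox-WT (2 higher, 3 lower), where 37.2% of all tested genes were called (21.3% higher, 15.9% lower). In URE-AML vs Hox-WT 4 were called (2 higher, 2 lower), against 43.2% of all tested genes (23% higher, 20.2% lower), and this count fell to 2 without Hox-WT library 1 or 2 or URE-AML library 2 or 3. In URE-AML vs Hox-URE 3 were called (2 higher, 1 lower), against 42.7% (20.4% higher, 22.4% lower). Libraries did not overlap between lines for 5, 4 and 5 of the 5 receptors in these comparisons, where 60.3%, 67.6% and 62.8% of all tested genes did not overlap. The comparisons share libraries and are not independent. The median log2 fold change of the tested genes on chromosomes 3, 4, 8 and 13, which carry the 5 receptors, lay between -0.03 and 0.07 in every comparison, against 0.00 over all tested genes. On chromosome 15, which carries the untested *Osmr* and *Lifr*, the median was 0.33 in Hox-URE vs Hox-WT and -0.39 in URE-AML vs Hox-URE, and -0.00044 in URE-AML vs Hox-WT.

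**Figure D3:**
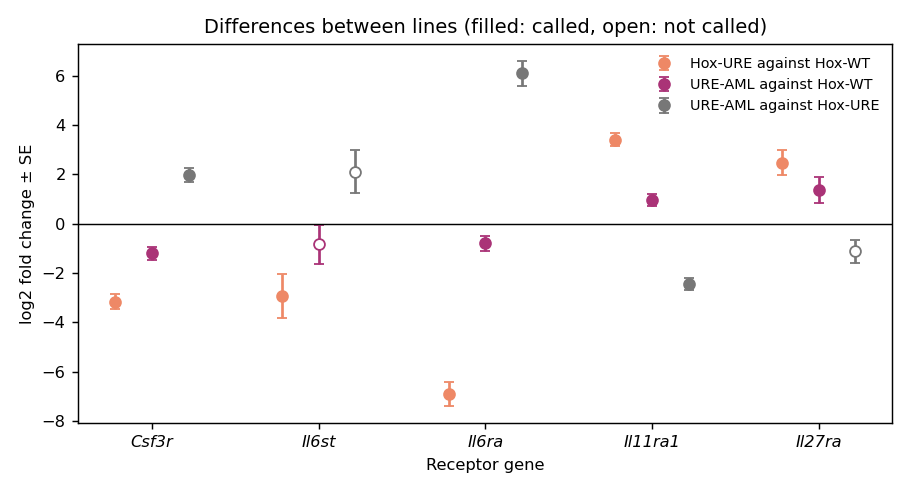
Log2 fold change with its SE (y axis) of the 5 tested receptor genes (x axis) in the 3 comparisons of the lines; filled points were called (adjusted p under 0.05 and fold change over 1.5) and open points were not. *Csf3r*, *Il6st* and *Il6ra* are below 0 and *Il11ra1* and *Il27ra* above 0 in Hox-URE vs Hox-WT.

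The genes whose pattern was most like a receptor were taken as the 3 with the smallest root mean square difference of centred log2 CPM (prior count of 2) over the 9 libraries. For *Il6ra* these were *Slc39a8* (difference 0.39, Pearson r = 0.987), *Gm14418* (0.40, r = 0.992) and *Usp53* (0.40, r = 0.985), which had mean levels of 0.0876, 0.0413 and 0 CPM in Hox-URE. For *Csf3r* they were *Gm39556* (0.30, r = 0.977), *Pilrb2* (0.35, r = 0.969) and *Spef2* (0.36, r = 0.970), all with at most 1.27 CPM in any line on average. The prior count shrinks differences of genes this scarce, so the match does not mean equal fold changes. *Gm39556* had means of 0.868 CPM in Hox-WT and 0.0259 CPM in Hox-URE, a wider step than the 8.92-fold of *Csf3r*. For *Il6st* they were *Cd2ap* (1.03, r = 0.885), *Vsig10* (1.07, r = 0.901) and *Itsn1* (1.09, r = 0.871), so no tested gene came as close to *Il6st* as to the others. These correlations are descriptions over 9 libraries of 3 lines. Ranking by Pearson r instead kept 1 of the 3 genes for *Il6ra* (*Gm14418*) and 0 for *Csf3r* and *Il6st*.

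Ligands of these receptors were examined as a list of 11 genes, 5 of them tested. *Osm*, the gene of oncostatin M, had 6.59, 8.03 and 6.98 CPM in Hox-WT, 65.8, 37.2 and 43.9 CPM in Hox-URE and 6.74, 6.23 and 5.15 CPM in URE-AML. It was highest in Hox-URE, 6.80-fold above Hox-WT (log2 fold change 2.76 ± 0.21, SE; edgeR adjusted p = 3.59e-06) and 8.10-fold above URE-AML (edgeR adjusted p = 1.45e-06). *Osmr* had no count in the same libraries. *Il6* itself had 3.90, 5.10 and 4.88 CPM in Hox-WT, 2.48, 3.48 and 2.50 CPM in Hox-URE and 0.0404, 0.0475 and 0.214 CPM in URE-AML. In Hox-URE vs Hox-WT it was not called (log2 fold change -0.71 ± 0.33, SE, edgeR adjusted p = 0.0903), though libraries did not overlap. It was called lower there by DESeq2 (DESeq2 adjusted p = 0.0454), with only the 6 libraries compared and without URE-AML library 3. It was 43.6-fold lower in URE-AML vs Hox-WT (log2 fold change -5.45 ± 0.47, SE; edgeR adjusted p = 4.42e-06; -6.57 without URE-AML library 3) and 26.6-fold lower in URE-AML vs Hox-URE (edgeR adjusted p = 1.51e-05; log2 fold change -5.86 without URE-AML library 3). *Ebi3*, the gene of a subunit of IL-27, had 1.72, 2.68 and 3.22 CPM in Hox-WT and 0 counts in the other lines. The difference was at least 16.6-fold for Hox-URE and at least 17.8-fold for URE-AML (edgeR adjusted p = 0.00024 and 0.00018), taking 3 counts per library as the floor. *Csf3* and *Lep*, the genes of G-CSF and leptin, had 0 counts in all libraries. The list had 1 gene higher and 1 lower in Hox-URE vs Hox-WT (median log2 fold change -0.30), 0 and 2 in URE-AML vs Hox-WT (-1.55) and 0 and 2 in URE-AML vs Hox-URE (-1.25), with medians over all tested genes of 0.00. The 2 of 5 tested ligands called in each comparison stand against 37.2%, 43.2% and 42.7% of all tested genes.

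Of 7 further chains of the family, 3 were tested, and each had another pattern. *Il31ra*, the IL-31 receptor chain, had 4.38, 8.07 and 5.98 CPM in Hox-WT and 0 counts in both URE lines (at least 40.1-fold lower for Hox-URE and 43.1-fold for URE-AML; edgeR adjusted p = 7.9e-05 and 5.7e-05). *Il12rb1*, a chain shared by the IL-12 and IL-23 receptors, rose from 1.09, 1.61 and 1.24 CPM in Hox-WT to 12.4, 10.6 and 8.48 CPM in Hox-URE and 30.6, 25.5 and 32.3 CPM in URE-AML. It exceeded Hox-WT 7.98-fold in Hox-URE (edgeR adjusted p = 1.5e-06) and 22.4-fold in URE-AML (edgeR adjusted p = 4.96e-08), and URE-AML exceeded Hox-URE by 1.49 ± 0.18 on the log2 scale (SE; edgeR adjusted p = 5.06e-05). *Il12rb2*, its partner in the IL-12 receptor, had 0 counts in Hox-URE, 1.61, 1.71 and 1.76 CPM in Hox-WT and 1.66, 1.76 and 1.16 CPM in URE-AML, so Hox-URE was at least 11.1-fold below Hox-WT (edgeR adjusted p = 2.1e-05). The median log2 fold change of the 3 tested chains in Hox-URE vs Hox-WT was -8.40 as fitted and -3.47 with genes at 0 set to their bounds. It was -0.15 in URE-AML vs Hox-WT and 1.49 in URE-AML vs Hox-URE. *Cntfr*, *Il11ra2* and *Il23r* had between 0 and 1 count in every library.

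**Figure D4:**
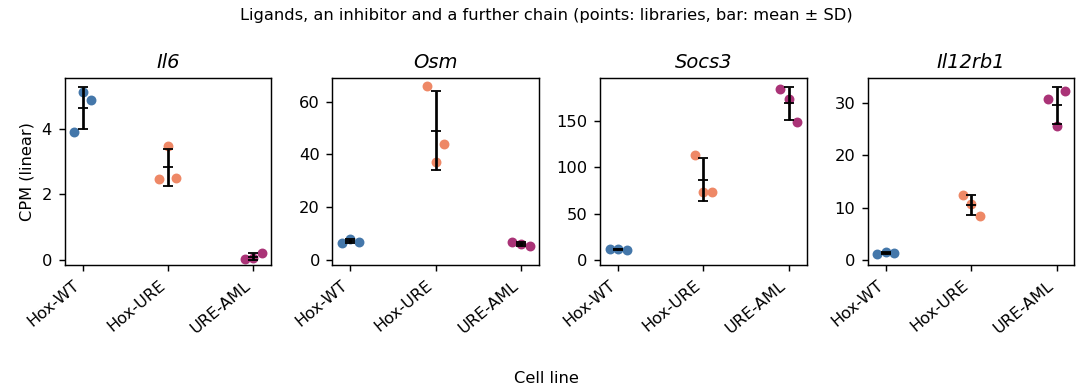
CPM (y axes, linear) of *Il6*, *Osm*, *Socs3* and *Il12rb1* in each library of the 3 cell lines (x axes), with means and SD of 3 libraries as bars. *Il6* is near 0 in URE-AML, *Osm* is highest in Hox-URE, and *Socs3* and *Il12rb1* step up from Hox-WT to Hox-URE and again to URE-AML.

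The kinases and STAT proteins downstream were expressed in every library. Of the 7, Hox-URE vs Hox-WT had 3 higher and 0 lower (median log2 fold change 0.52), URE-AML vs Hox-WT had 2 higher and 1 lower (0.04), and URE-AML vs Hox-URE had 0 higher and 3 lower (-0.34). The 3 of 7 called each time are near the share of all tested genes called (37.2%, 43.2% and 42.7%). *Jak2* averaged 58.0 ± 6.04 CPM in Hox-URE, above Hox-WT (30.3 ± 3.62) and URE-AML (31.1 ± 2.43; SD, n = 3), and exceeded Hox-WT by 0.94 ± 0.12 on the log2 scale (SE; edgeR adjusted p = 0.000128). *Stat3*, the main STAT of gp130, had 93.3 ± 6.63, 68.3 ± 8.61 and 66.3 ± 7.15 CPM (SD, n = 3) and passed the p threshold but not the fold threshold against Hox-WT in Hox-URE (log2 fold change -0.45 ± 0.12, SE; edgeR adjusted p = 0.00938) and URE-AML (-0.49 ± 0.12; edgeR adjusted p = 0.00515). *Stat5a* was lower in URE-AML than in either Hox line (3.93-fold vs Hox-WT, edgeR adjusted p = 6.54e-06).

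Among 8 adaptors and SRC-family kinases that these receptors use, Hox-URE vs Hox-WT had 1 higher and 1 lower (median log2 fold change 0.19), URE-AML vs Hox-WT had 1 higher and 3 lower (-0.06), and URE-AML vs Hox-URE had 1 higher and 4 lower (-0.63), where 37.2%, 43.2% and 42.7% of all tested genes were called. *Gab1*, a docking protein that links gp130 to the RAS pathway, was lower in URE-AML, which had 0.664 ± 0.373 CPM against 13.4 ± 1.68 in Hox-WT and 8.98 ± 1.97 in Hox-URE (SD, n = 3; edgeR adjusted p = 2.48e-06 and 7.74e-06). *Grb2*, an adaptor of the same route, was likewise lower in URE-AML (2.49-fold vs Hox-WT, edgeR adjusted p = 1.78e-06). The sheddase gene *Adam17*, whose product releases the IL-6 receptor from the cell surface, was 2.34-fold lower in URE-AML vs Hox-WT (edgeR adjusted p = 1.3e-05), with a log2 fold change of -0.13 ± 0.12 (SE) in Hox-URE vs Hox-WT (edgeR adjusted p = 0.384). With *Adam10*, the other sheddase, the list of 2 had 0 higher and 1 lower, 0 and 2, and 0 and 1 in the 3 comparisons in the same order (medians -0.36, -0.95 and -0.58), where 15.9%, 20.2% and 22.4% of all tested genes were called lower. The call in Hox-URE vs Hox-WT was that of *Adam10*. It was lost without Hox-URE library 1, without Hox-WT library 2 and in the 1.5-fold test.

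Of the inhibitors of the pathway, *Socs1*, *Socs3* and *Cish* were called higher in both URE lines vs Hox-WT. Of 9 inhibitors, Hox-URE vs Hox-WT had 5 higher and 0 lower (median log2 fold change 0.74) and URE-AML vs Hox-WT had 5 higher and 0 lower (0.65), where 21.3% and 23% of all tested genes were called higher. *Socs2* and *Pias3* completed the count in Hox-URE, and *Ptpn1* and *Ptpn6* in URE-AML, where the call of *Ptpn6* (edgeR adjusted p = 0.0368) was lost without URE-AML library 1, without any one of the Hox-WT libraries and in the 1.5-fold test. The call of *Pias3* in Hox-URE was likewise lost without Hox-URE library 2 (log2 fold change 0.54) and in the 1.5-fold test, which leaves 4 of the 9. *Socs3*, the inhibitor that binds gp130 and the G-CSF receptor, had 12.2, 11.5 and 11.1 CPM in Hox-WT, 114, 73.5 and 73.6 CPM in Hox-URE and 184, 174 and 149 CPM in URE-AML. No lines overlapped. Its log2 fold changes against Hox-WT were 2.91 ± 0.18 (SE; 7.50-fold; edgeR adjusted p = 7.25e-07) and 3.87 ± 0.19 (14.6-fold; edgeR adjusted p = 5.92e-08), and URE-AML exceeded Hox-URE by 0.96 ± 0.16 (edgeR adjusted p = 0.000606). *Cish*, a STAT5-induced inhibitor, averaged 125 ± 14.6 CPM in Hox-URE and 136 ± 18.4 CPM in URE-AML against 21.9 ± 3.52 CPM in Hox-WT (SD, n = 3; 5.68-fold and 6.19-fold; edgeR adjusted p = 6.55e-07 and 2.51e-07). *Socs1* had 2.30 ± 0.184, 14.7 ± 10.1 and 15.2 ± 1.61 CPM (SD, n = 3). Its log2 fold change in Hox-URE vs Hox-WT was 2.66 ± 0.43 (SE; edgeR adjusted p = 0.000512) and 1.97 without Hox-URE library 3. In URE-AML vs Hox-URE the list had 2 genes higher and 1 lower (median 0.12), against 20.4% and 22.4% of all tested genes. Without Hox-URE library 3, *Socs1* and *Ptpn6* were called higher there too (log2 fold changes 0.75 and 0.70, edgeR adjusted p = 0.0256 and 0.0439).

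A list of 15 genes known to respond to STAT3 held called genes in both directions. It shares *Socs3* with the inhibitors and *Cebpb* and *Cebpd* with the promoter factors described next, so these genes are counted in both lists. In Hox-URE vs Hox-WT 6 were higher and 5 lower (median log2 fold change 0.24), in URE-AML vs Hox-WT 8 higher and 4 lower (0.68), and in URE-AML vs Hox-URE 4 higher and 2 lower (0.33). The background shares were 21.3% higher and 15.9% lower, 23% and 20.2%, and 20.4% and 22.4% of all tested genes. In Hox-URE vs Hox-WT the calls of *Bcl3* and *Lrg1* as lower and *Cebpb* as higher were lost without Hox-WT library 2 (edgeR adjusted p = 0.0503, 0.0972 and 0.086). Among those higher in Hox-URE, *Cebpd*, a C/EBP factor, rose 4.37-fold over Hox-WT (edgeR adjusted p = 2.25e-06), *Il4ra*, a receptor chain for IL-4, rose 2.92-fold (edgeR adjusted p = 3.05e-06) and *Bcl2l1*, which encodes the survival protein BCL-XL, rose 2.63-fold (edgeR adjusted p = 1.49e-05). *Myc* fell 2.13-fold (edgeR adjusted p = 9.48e-05), and *Icam1*, an adhesion molecule, had 12.4, 14.4 and 14.3 CPM in Hox-WT and 0 counts in Hox-URE (at least 89.4-fold lower, edgeR adjusted p = 1.2e-06). *Lrg1*, a secreted glycoprotein of maturing neutrophils, had 47.6 ± 15.4 CPM in URE-AML against 1.45 ± 0.532 in Hox-WT and 0.603 ± 0.172 in Hox-URE (SD, n = 3; 32.6-fold over Hox-WT, edgeR adjusted p = 5.37e-07).

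Factors known to act on the *Csf3r* promoter were examined beside it. *Spi1* had 110, 101 and 96.5 CPM in Hox-WT, 1, 1 and 0 counts in Hox-URE and 2.50, 5.52 and 6.35 CPM in URE-AML. *Cebpa*, the C/EBP factor of early granulocyte progenitors, averaged 305 ± 9.79 CPM (Hox-WT), 338 ± 20.4 CPM (Hox-URE) and 389 ± 28.9 CPM (URE-AML; SD, n = 3) and was not called in any comparison. *Cebpe*, the C/EBP factor of later granulocyte stages, had 61.0, 55.9 and 43.8 CPM in Hox-WT, 5.02, 6.71 and 6.94 CPM in Hox-URE and 229, 284 and 338 CPM in URE-AML, 8.64-fold below Hox-WT in Hox-URE (edgeR adjusted p = 8.09e-07) and 5.30-fold above it in URE-AML (edgeR adjusted p = 1.53e-06). Of the 8 factors, Hox-URE vs Hox-WT had 2 higher and 4 lower (median log2 fold change -0.31), URE-AML vs Hox-WT had 4 higher and 2 lower (0.52), and URE-AML vs Hox-URE had 4 higher and 1 lower (0.80), where 37.2%, 43.2% and 42.7% of all tested genes were called. In Hox-URE vs Hox-WT the call of *Cebpb* (higher) was lost without Hox-URE library 3 or Hox-WT library 2 or 3. That of *Gfi1* (lower) was lost without Hox-URE library 2. In URE-AML vs Hox-WT the call of *Runx1* (higher, edgeR adjusted p = 0.0495) was lost without any one of the URE-AML libraries, among other settings.

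Most neutrophil granule and migration genes, which mark the cells in which *Csf3r* is most active, were lower in Hox-URE and higher in URE-AML. Of 12 genes, 1 was higher and 9 lower in Hox-URE vs Hox-WT (median log2 fold change -4.69, or -3.84 with genes at 0 set to their bounds). In URE-AML vs Hox-WT 10 were higher and 1 lower (3.64), while *Csf3r* was lower there. In URE-AML vs Hox-URE 11 were higher and 0 lower (7.42, or 5.11 with the bounds). The shares over all tested genes were 15.9% lower, 23% higher and 20.4% higher in these comparisons. *Elane*, the gene of neutrophil elastase, had 112, 234 and 196 CPM in Hox-WT, 8.85, 10.7 and 8.27 CPM in Hox-URE and an average of 7307 ± 3114 CPM in URE-AML (SD, n = 3). *Lcn2*, a granule protein, was the gene called higher in Hox-URE, from 8.06 ± 1.42 to 133 ± 36.1 CPM (SD, n = 3; 16.4-fold, edgeR adjusted p = 4.16e-07). *Ctsg*, the gene of cathepsin G, had 1598, 2085 and 2292 CPM in Hox-WT and 2482, 3631 and 3858 CPM in Hox-URE, without overlap (log2 fold change 0.74 ± 0.29, SE; edgeR adjusted p = 0.0545), and was called in 8 of the other settings tried, DESeq2 among them (DESeq2 adjusted p = 0.0169).

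**Figure D5:**
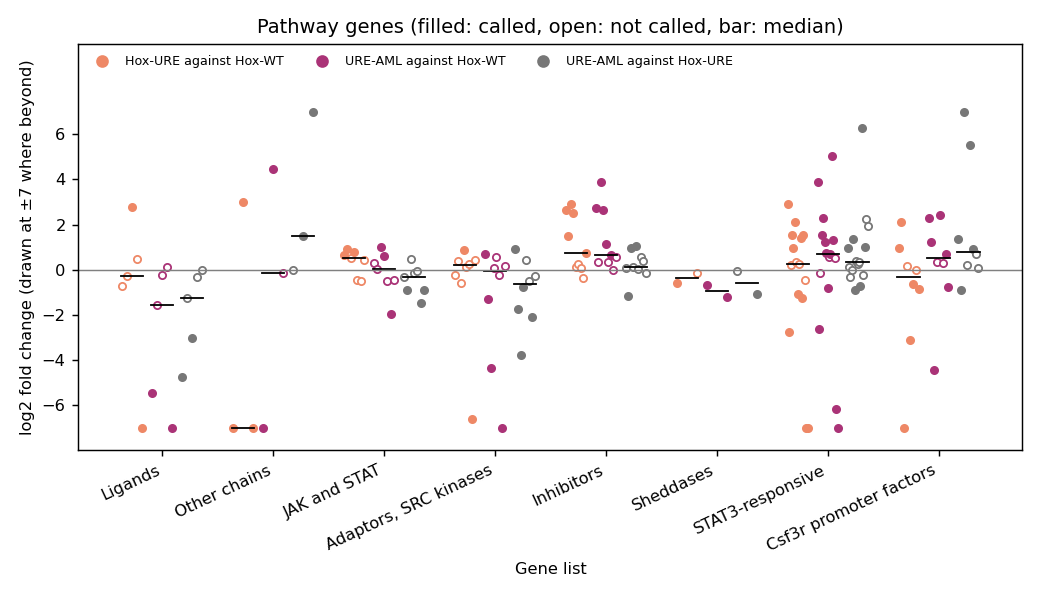
Log2 fold changes (y axis, values beyond 7 in size, medians included, drawn at 7 or -7) of the tested genes of 8 pathway lists (x axis) in the 3 comparisons of the lines; filled points were called, open points were not, and bars are medians. The inhibitors are above 0 in both comparisons with Hox-WT wherever they were called, and the other lists hold called genes on both sides of 0 or only a few called genes.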

How the data were processed

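Bulk poly(A) RNA of 9 libraries of 3 mouse cell lines was sequenced. The authors quantified reads with Salmon against GRCm38 and summarised them to genes, and they deposited estimated counts as whole numbers, which were used without further rounding; per the labels the build is GRCm38. Library sizes were scaled by TMM, genes were filtered with filterByExpr (minimum count 10), and lines were compared with edgeR 4.0.16 quasi-likelihood tests (R 4.3.3) over all 9 libraries with line as the only factor. P-values were adjusted by the Benjamini-Hochberg method over 13082 genes, and the study's thresholds (adjusted p under 0.05, fold change over 1.5) set the calls, although the study itself used DESeq2, which was run as an alternative (1.42.0). The SE of a log2 fold change was its size divided by the square root of F. Genes not tested held 0.0499% of counts. Within-line pairs of libraries differed by 19.1 to 105 times counting noise (chi-square per degree of freedom), so no library was a duplicate. Intervals are exact (Poisson, or Clopper-Pearson on summed counts) and cover counting error only. For genes at 0, bounds of levels and of fold changes set 3 counts per library as the floor. Exon lengths and positions came from GENCODE M21, which matched 54094 of 54347 identifiers. Scripts were tested on simulated data. The receptor genes, pathway lists and marker lists were chosen with earlier results of these data known. All receptor genes, any listed pathway gene, and the 3 genes most like *Csf3r*, *Il6st* and *Il6ra* could be named; some listed pathway genes are not reported here by name. Marker lists for monocytes, megakaryocytes, erythroid and lymphoid cells, stroma and endothelium were summed per line. Alternatives covered other scalings, filters, tests, thresholds, a replicate block and leaving out each library.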

Additional observations from a re-analysis of the deposited data

How the results depend on the processing

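No log2 fold change of the 15 (5 receptors in 3 comparisons) reversed over 279 alternative values. Of these values 252 kept their side of the threshold, 18 lost a call and 9 gained it. Dropping the fold threshold, testing against 1.5-fold and adding *Il11ra2* to *Il11ra1* leave the fold change itself unchanged. Values from these settings could not have reversed. Requiring 10 counts in every library left no value for *Il6st*, *Il6ra* and *Il27ra*, and called 3200, 3602 and 3553 genes in Hox-URE vs Hox-WT, URE-AML vs Hox-WT and URE-AML vs Hox-URE (4873, 5648 and 5592 in the reported fit), with 2 receptors called in each of the comparisons with Hox-WT. That setting tests fewer genes. In the other cases the cause was not tested. *Il6st* in URE-AML vs Hox-URE was called by library size alone (2.22) and with no filter (2.12), and in URE-AML vs Hox-WT with 6 libraries (-0.84). In URE-AML vs Hox-WT *Il6ra* lost its call with no filter (-0.79) and in a test against 1.5-fold (-0.80), *Il11ra1* in the latter (0.97), and *Il27ra* with upper-quartile factors (1.32), no filter (1.36), 6 libraries (1.35) and the 1.5-fold test (1.35). The receptors called there fell from 4 to 2 with no filter and to 1 in the 1.5-fold test. *Il27ra* in URE-AML vs Hox-URE was called with 6 libraries (-1.14).

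Leaving out a library gave ranges of 1.49 to 5.22 (*Il6st*, URE-AML vs Hox-URE), -0.97 to -0.71 (*Il6ra*, URE-AML vs Hox-WT), 0.98 to 2.02 (*Il27ra*, URE-AML vs Hox-WT) and -1.50 to -0.90 (*Il27ra*, URE-AML vs Hox-URE), and 2 to 4 receptors called in URE-AML vs Hox-WT. The reported fit called 40, 44 and 35 of 66 tested pathway genes in Hox-URE vs Hox-WT, URE-AML vs Hox-WT and URE-AML vs Hox-URE. The shares over all tested genes were 37.2%, 43.2% and 42.7%. In all other fits the numbers of called pathway genes stayed within 1.5 times of these, which is a wide band. With library size alone the median log2 fold change of all genes was -0.08, 0.01 and 0.11, against 0.00 in each comparison of the reported fit.

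Library numbers were not taken to pair the lines, since nothing in the labels says what they mark and not every same-number correlation of deviations exceeded 0.1. These were 0.271, 0.0995 and 0.174 in Hox-URE vs Hox-WT, 0.0444 to 0.0923 in URE-AML vs Hox-URE and 0.0100 to 0.0844 in URE-AML vs Hox-WT. In the first and second of these every library correlated best with its own number, which is a hint from the data and not from the design. With replicate number as a block, 4908, 5678 and 5584 genes were called, *Il27ra* in URE-AML vs Hox-URE became called (-1.19, edgeR adjusted p = 0.0425), *Ptpn6* in URE-AML vs Hox-WT was not called (edgeR adjusted p = 0.0589), and no other receptor call changed.

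Levels per length moved beyond the SD with the longest transcript for *Csf3r* (7.88) and *Il6st* (1.21) in Hox-WT and for *Il11ra1* (1.87 in Hox-WT, 19.9 in Hox-URE, 3.68 in URE-AML), and with library size alone for *Csf3r* in Hox-WT (7.79) and *Il11ra1* in Hox-URE (11.0). Depth limits *Lifr*, *Osmr*, *Lepr* and, in Hox-URE, *Il6ra*, which had at most 5 counts in a library.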
